A study of Homo sapiens with 6 samples.

Results

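The cytosolic ribosomal protein genes of Kasumi-1 cells were chosen by name. A row of the expression table was a member if GENCODE 29 gives its Ensembl identifier as a protein-coding gene with a fitting symbol. Symbols were RPSA, or RPL, RPS or RPLP with a number and at most a suffix built on A, X or L. RPS4Y1 and RPS4Y2 are outside this pattern, and S6 kinase genes were left out. This gave 84 of the 32364 genes in the table, 32 of the 40S and 52 of the 60S subunit. The annotation holds 85 such genes, and RPL10L, the remaining one, was not analysed here. The rule itself uses names and no measured value, although it was set with earlier results of these data known.

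Kasumi-1 is an established acute myeloid leukemia line with a t(8;21) translocation that fuses RUNX1 (AML1) with RUNX1T1 (ETO). I13 is a histone deacetylase inhibitor that contains indole-3-butyric acid. The study sequenced mRNA from 3 libraries of Kasumi-1 cells kept with control for 48 h, for which the methods name DMSO at the concentration of the I13 solution, and from 3 libraries of Kasumi-1 cells kept for the same 48 h with I13 at 0.5 µM. All libraries come from this 1 line. The paper describes its experiments as independent repeats, and the sample labels do not say how the replicate cultures were kept apart.

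Ribosomal proteins are assembled with ribosomal RNA in the nucleolus into a small 40S and a large 60S subunit, which join to translate mRNA. Cells make the proteins in nearly equal numbers, and many of their mRNAs begin with a C followed by a run of pyrimidines, the 5′ terminal oligopyrimidine (TOP) tract, through which mTOR and LARP1 control their translation. The genes have left many processed pseudogenes in the genome, and some have a second functional copy, usually named with a final L.

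The starts of members that the results turn on are shown first, because a tract at the transcript start is the feature for which this gene family is best known. Each line is 25 bases on GRCh38.p14 from RefSeq promoters, written 5′ to 3′ on the strand of the gene. The sixth base is the annotated start, and capitals mark the unbroken run of C and T that holds it.
RPLP2, chr11:809962-809986, plus strand: gCCTTCCTTTTCCTCCCTgtcgcca
RPS12, chr6:132814564-132814588, plus strand: gaggCCTCTTTCCCTgccgccgccg
RPL39, chrX:119791611-119791635, minus strand: agCTTCCCTCCTCTTCCTTTCTCCg
RPL27, chr17:42998414-42998438, plus strand: aggttagcggaagtgtccttctttc
RPL17, chr18:49492446-49492470, minus strand: taagcagcctgaggtgagtgtttct
RPS6, chr9:19380217-19380241, minus strand: tggCCCTCTTTTCCgtggcgcctcg
RPS27, chr1:153990757-153990781, plus strand: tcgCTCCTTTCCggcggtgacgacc
RPS27L, chr15:63157458-63157482, minus strand: cgagcgcagatcgcttgcagcttgc
RPL22, chr1:6199576-6199600, minus strand: aCCTCCCTTTCTaactccgctgccg
RPL22L1, chr3:170870176-170870200, minus strand: gCTTCCTCTCTgctctcgcggccga
RPLP2, RPS12 and RPL39 have long tracts at the annotated start. RPL27 and RPL17 start at A with no tract there, and the same holds for RPS27L, which starts at G, while its relative RPS27 has one. Both RPL22 and its like copy RPL22L1 carry a tract.

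Promoter windows matched 67 of the members. Of these, 48 (71.6%) started at C and 43 (64.2%) started at C with a run of at least 5 pyrimidines counted from the start. Over 15842 protein-coding promoters of the same length the shares were 11.3% and 4.602%. Mitochondrial ribosomal protein genes, whose products serve the separate ribosome of that organelle, had 11.6% and 7.25% of 69 promoters. The motif CCGGAAG, a core of ETS factor sites searched on both strands over 250 bases before and 50 after the start, was in 34.3% of the member windows, 42.0% of the mitochondrial ribosomal protein windows and 14.2% of all. These are matches of letters at 1 annotated start per gene and not mapped starts in Kasumi-1 cells.

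The 6 libraries held between 15281052 and 17221345 fragments, recovered from the FPKM values and exon lengths. Between replicates the chi-square per gene was 3.07 to 8.26, and counting alone would give a value near 1. Among 4133 genes at 10 FPKM or more, control replicate 3 and I13 replicate 2 stood apart on the first component (43.3% of the variance), and no batch is named in the labels. The main results are also given without this pair. The blast markers were present, with MPO between 10241 and 12450 FPKM and RUNX1T1 between 12.5 and 14.4 FPKM. Of the 8 markers of other cell types with a row, COL1A1 and FCGR3B were listed at 0 in every library, and the sum over the 8 was 2.62 to 2.91 FPKM in control and 1.72 to 1.91 FPKM in I13 libraries. That sum was mostly PECAM1, a surface protein of endothelium and myeloid cells, at 2.44 to 2.49 FPKM in control and 1.30 to 1.82 FPKM in I13 libraries, and its part in the results was not tested.

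The ribosomal protein genes were among the strongest genes of the cell line. Of the 100 genes with the highest mean FPKM, 40 were members. The mean level of a member ranged from 0.0220 FPKM for RPL3L to 1515 FPKM for RPL8, with a median of 311 FPKM. At least 1000 FPKM was reached by 6 members, 37 lay between 300 and 1000, 23 between 100 and 300, and 18 were lower.

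RPL8, a 60S protein at the peptidyl transferase centre, was measured at 1487, 1429 and 1539 FPKM in control and 1557, 1666 and 1412 FPKM in I13 libraries. RPLP0, the base of the stalk that recruits translation factors, stood at 1461, 1423 and 1531 FPKM in control and 1507, 1576 and 1458 FPKM in I13 libraries. In both genes the groups overlapped and I13 replicate 2 was highest. RPS2 of the 40S and RPL13A of the 60S subunit were also over 1000 FPKM, with control means of 1251 ± 78.2 and 1178 ± 36.4 FPKM and I13 means of 1319 ± 70.6 and 1215 ± 63.1 FPKM (SD, n = 3). Their groups overlapped as well.

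**Figure D1:**
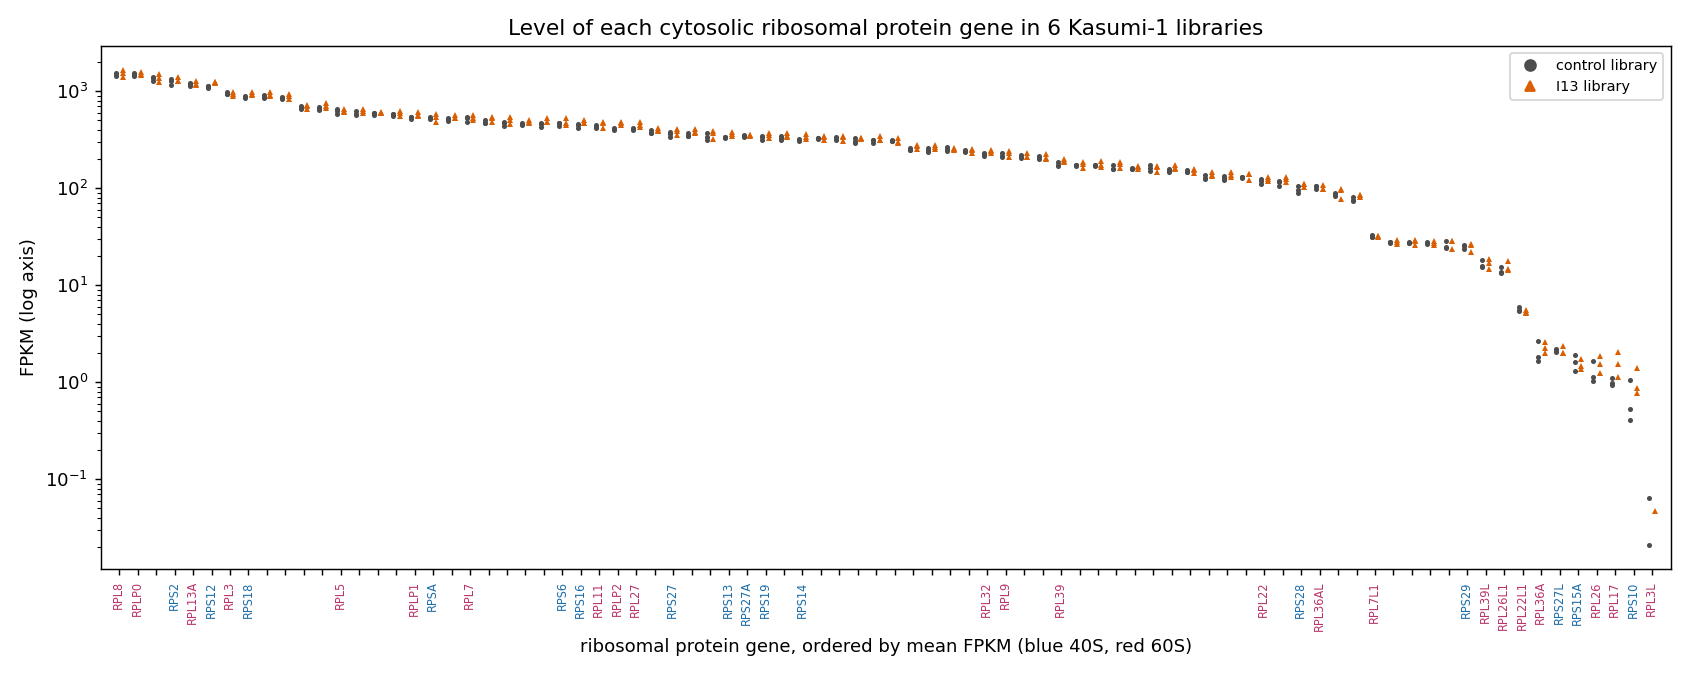
FPKM on a log axis for each of the 84 members, ordered by mean, with 1 point per library (circles control, triangles I13, values of 0 not drawn, some genes labelled). The levels fell evenly from 1515 FPKM to 80.5 FPKM and then in steps to the 8 members under 10 FPKM, and in nearly every gene the control and I13 points lay on top of each other.

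The proteins are needed in nearly equal numbers, but the deposited levels of their genes spanned several orders of magnitude, and 16 members were under 40 FPKM. FPKM divides by the length of all exons of a gene, and the median length used was 2942 bases against 710.5 bases for the principal transcript. RPS29, a small 40S protein, is an extreme case. Its fragments were divided by 9743 bases although its principal transcript has 296, so its mean was 24.8 FPKM per exon length and 818 per kilobase of that transcript. On the scale per kilobase of principal transcript, chosen after the values were seen, the median of the members was 1193, and the order of the members was largely kept (Spearman's rho 0.83 over 84 genes, a description). Some principal transcripts are themselves long, such as those of RPL37 with 7686 bases and RPS23 with 3437. These genes stayed low on that scale, at 85.4 and 33.2. The part of such lengths in the kept order was not tested.

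A second feature of the low members was sequence shared with other genes. RPS10, a 40S protein, was the lowest gene of the group apart from RPL3L, at 0.531, 1.07 and 0.404 FPKM in control and 0.765, 0.876 and 1.39 FPKM in I13 libraries, or 11 to 35 fragments. Of its 50-base words, 90.4% also occur in transcripts of other genes, chiefly the readthrough gene RPS10-NUDT3. RPL17, which lines the peptide exit tunnel, had 90.3% of its words shared, chiefly with RPL17-C18orf32, and 40 to 77 fragments. RPL36A shared 80.3%, chiefly with RPL36A-HNRNPH2, RPL26 shared 68.1% and RPS15A shared 56.7%, the last pair chiefly with AC135178.2 and AC138811.2. These 5 genes had means of 0.84 to 2.2 FPKM.

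Sharing of 50-base words alone did not separate low from high members. More than 50% of the words were shared in 7 of the 16 members under 40 FPKM and in 18 of the 68 members above it, with medians of 27.0% and 26.9%. For words of 100 bases the medians were 12.1% under 40 FPKM and 5.14% above it. Other low members were nearly unique in sequence: RPS27L shared 2.32%, RPL22L1 0.701%, RPL39L 2.98% and RPL3L 0.328%. How reads on shared sequence were assigned is not given in the sources used here, and its part in the low values was not tested. The values of RPS10, RPL17, RPL36A, RPL26 and RPS15A are uncertain, since it is not known how reads on their shared sequence were counted. Same-strand exons of other genes, chiefly the partners named above, cover 39.4% of the exon bases of RPS10 and 32.7% of those of RPL17. For RPL26, RPL36A and RPS15A this was 14.3%, 8.40% and 3.26%. AC135178.2, the chief partner of RPL26, had a mean of only 0.0063 FPKM.

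**Figure D2:**
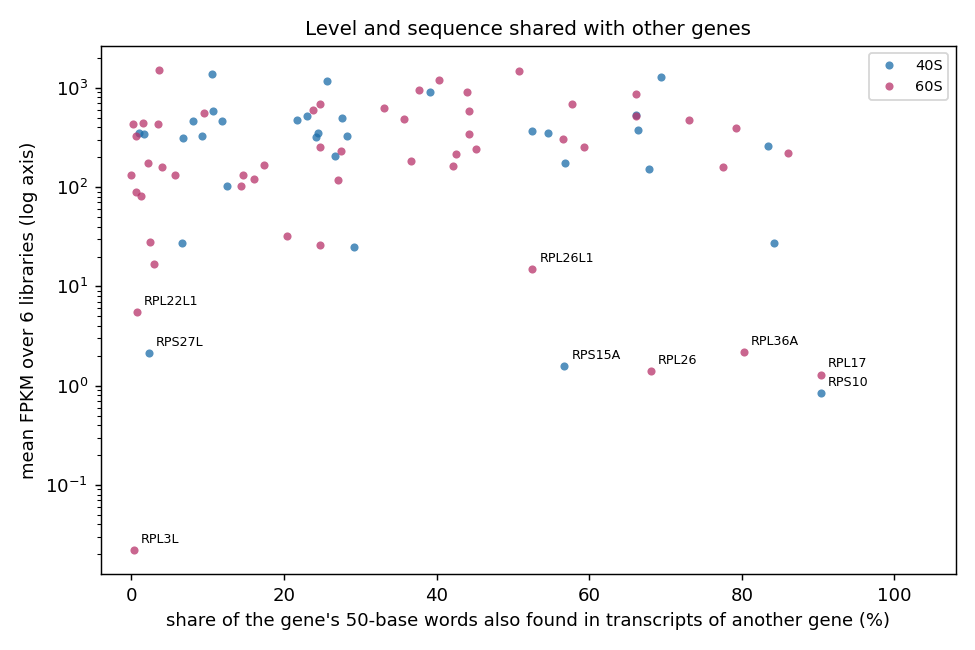
Mean FPKM over 6 libraries (log axis) against the percentage of a gene's 50-base words that occur in transcripts of another gene, 1 point per member (blue 40S, red 60S). RPS10 and RPL17 lie at the lower right with 90.4% and 90.3% shared, chiefly with overlapping readthrough genes. Members with similar percentages, such as RPL9 at 86.0%, reached 223 FPKM. RPL9 shares chiefly with its pseudogene RPL9P9 and has no same-strand exon overlap, so its sharing is of another kind.

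Summed over the group, the members held 10.6%, 10.02% and 10.3% of the summed FPKM in the control libraries and 10.9%, 11.1% and 10.3% in the I13 libraries. Control replicate 1 was above I13 replicate 3, so the groups overlapped. The mean was 10.3% ± 0.312 in control and 10.8% ± 0.432 in I13 libraries (SD, n = 3), a difference of 0.439 percentage points, which was about as large as the spread between replicates. It was 0.252 without I13 replicate 2, 0.280 without control replicate 2 and 0.675 without I13 replicate 3. In the 4 libraries outside control replicate 3 and I13 replicate 2 it was 0.258, and within that pair 0.8002. These are shares of bulk libraries, in which fewer cells with a high level and less RNA per cell cannot be told apart, and an absolute amount per cell was not measured.

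The genes of both subunits differed by similar amounts. The 40S genes held 4.22% ± 0.142 in control and 4.43% ± 0.172 in I13 libraries, and the 60S genes held 6.12% ± 0.173 and 6.35% ± 0.261. The ratio of 40S to 60S sums lay between 0.682 and 0.697 in control and between 0.695 and 0.701 in I13 libraries, with means of 0.690 ± 0.00742 and 0.698 ± 0.00286. Mitochondrially encoded genes, the other large component of the libraries, held 17.8% ± 0.681 and 17.9% ± 0.624. Without them the members held 12.6% ± 0.288 and 13.1% ± 0.428. Counted in fragments instead of FPKM, the members held 8.88% ± 0.224 and 9.29% ± 0.414.

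Within a library the members deviated from their own means together. Their median deviation on the log2 scale was -0.0030, -0.07 and -0.03 in control replicates 1, 2 and 3 and 0.04, 0.10 and -0.03 in I13 replicates 1, 2 and 3. Of the 83 members tested, 39, 11 and 25 were above their own mean in the control libraries and 73, 70 and 23 in the I13 libraries. I13 replicates 1 and 2 were thus high for most members, while I13 replicate 3 was as low as the controls. I13 replicate 2 was the highest library for 52 members, and control replicate 2 was the lowest for 32.

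The 239 other genes with at least 100 FPKM served as a background of strong genes. They had median deviations of -0.02, -0.02 and 0.03 in control and -0.01, 0.07 and -0.02 in I13 libraries, so that control replicate 3 and I13 replicate 2 were both high. For the members control replicate 3 was not high. Of the members, 67 (80.7%) had a Pearson correlation over 0.5 with the median profile of the group across the 6 libraries, and 52.7% of the other strong genes had one with their own median profile. The points of each profile are the same 6 libraries, and a gene is part of the median it is compared with, so these shares are descriptions. The first component held 42.7% of the variance of all tested members and 47.4% of that of the other strong genes. The tested members include genes with few fragments, so these shares do not compare genes of a matched level. Among genes with a mean of at least 10 FPKM the first component held 63.5% for 76 members and 43.5% for 4057 other genes. Few of those other genes reach 100 FPKM, so these sets are not matched in level either.

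**Figure D3:**
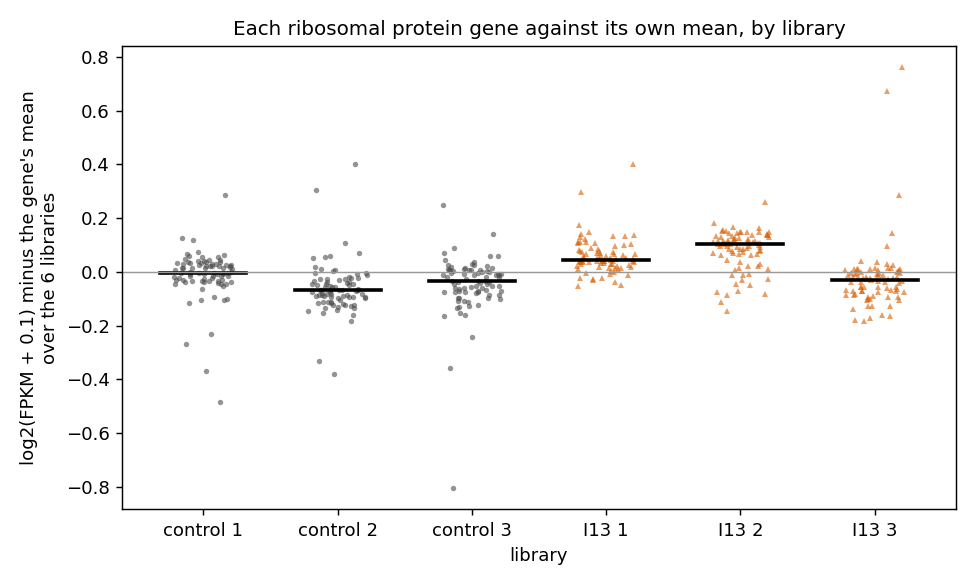
Deviation of log2(FPKM + 0.1) from the gene's mean over the 6 libraries, 1 point per member and library for the 83 members tested, with the median as a black line (circles control, triangles I13). The medians of I13 replicates 1 and 2 lie at 0.04 and 0.10, above all 3 control libraries, and that of I13 replicate 3 lies at -0.03 among them.

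The comparison of I13 with control asks which genes the inhibitor moved. On log2(FPKM + 0.1) with limma, fitted over 18726 genes, no member passed an adjusted p of 0.05 together with a log2 fold change of 0.58 or more in either direction, where 0.0% of all genes tested did. The smallest adjusted p (limma, Benjamini-Hochberg) was 0.787 among members and 0.275 among all genes. At an unadjusted p under 0.05, 5 members were higher in I13 and 0 were lower, 6.02% of the 83 tested against 2.55% of all genes higher and 2.59% lower. By limma's voom on the recovered fragments 9 members were higher (2.56% of all genes), 0 were lower (2.8% of all genes) and 0 passed the adjusted p (0.0362% of all genes). With a term for control replicate 3 and I13 replicate 2, added after the data had been seen, voom gave 32 higher members (5.0% of all genes), 0 lower (5.27% of all genes) and 1 at an adjusted p under 0.05 (0.63% of all genes). In the 4 libraries outside that pair limma gave 6 higher members, RPL17, RPL26, RPL28, RPLP2, RPS15 and RPS28. Without I13 replicate 3 it gave 10, without I13 replicate 1 it gave 1, and without control replicate 2 or I13 replicate 2 it gave 2. The shares of all genes in these reduced sets of libraries are not given here, so these counts cannot be read as particular to the members.

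The direction of the differences was more uniform than their size. The log2 fold change was above 0 in 75 of 83 members (51.8% of all genes tested) and below 0 in 8. The median was 0.07 for the members and 0.0058 for all genes tested, and 72 of the 75 lay between 0 and 0.2. Among the other genes with at least 100 FPKM, 136 of 239 were above 0, with a median of 0.01. The SD of the log2 fold changes was 0.10 over the members of all levels and 0.08 over those genes. The sets differ in level, so these SDs do not show which varied more. The 68 members from 40 FPKM had log2 fold changes of -0.03 to 0.19, and the 15 tested members under 40 FPKM had -0.08 to 0.59. The I13 values were above every control value in 12 members (4.88% of all genes) and below in 0 (4.64% of all genes). RPL17, RPL27, RPL32, RPLP1, RPLP2, RPS12, RPS13, RPS16 and RPS18 were among these 12. Members share libraries and move together, so their number is not a number of independent tests.

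The count in 1 direction rested in part on the scaling and on I13 replicate 2. After quantile normalization 56 of 83 members (67.5%) were above 0 (50.5% of all genes), with a median of 0.02. Without control replicate 3 and I13 replicate 2 the median was 0.04 and 60 members were above 0 (53.9% of all genes). Within that pair it was 0.12 and 78 were above 0 (43.3% of all genes). Without I13 replicate 2 alone the median was 0.04 with 61 above 0 (55.9% of all genes). Without I13 replicate 3 it was 0.10 with 79 above 0 (47.9% of all genes).

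**Figure D4:**
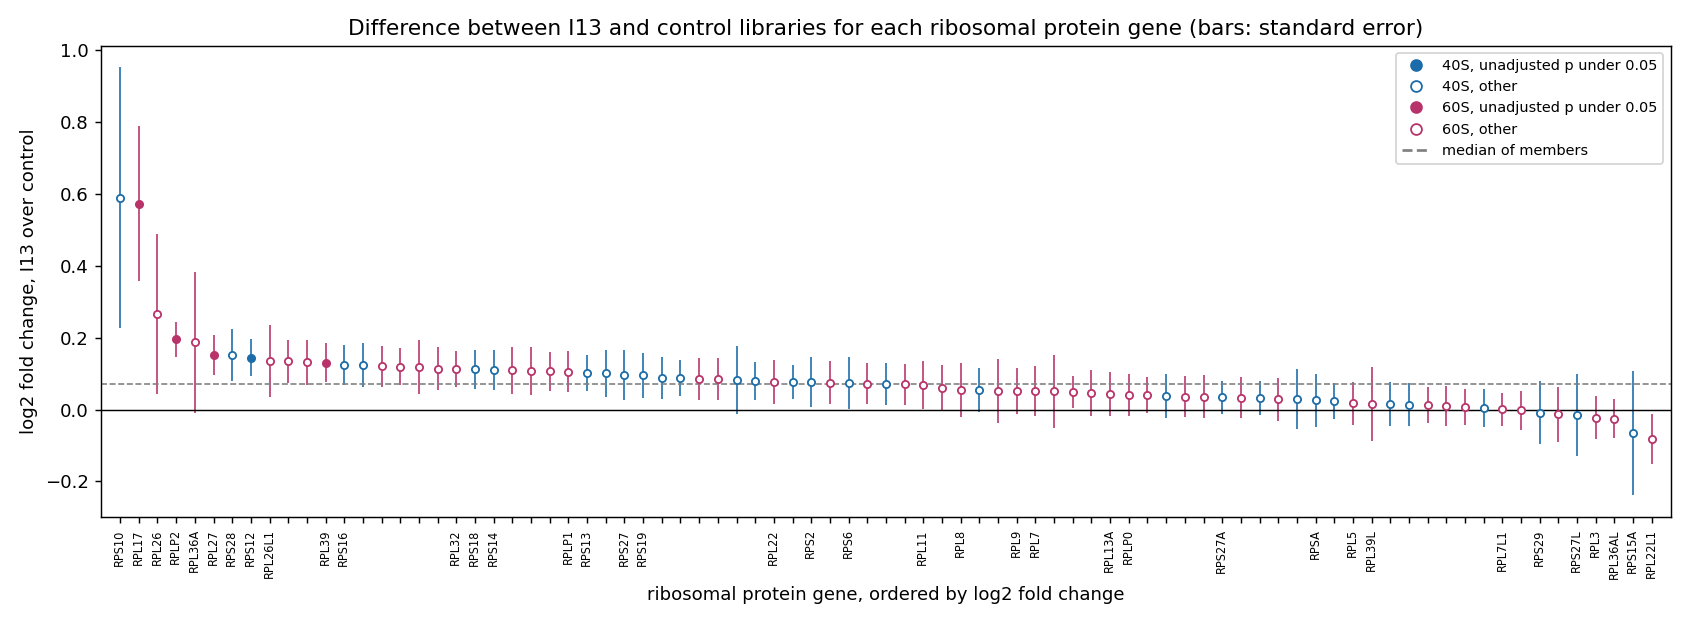
Log2 fold change of I13 over control with its standard error for the 83 members tested, in order of size (some genes labelled, blue 40S, red 60S, filled where the unadjusted p is under 0.05, dashed line the median of 0.07). Of the 83 members 69 lie within 2 standard errors of 0, most of them on its upper side, and the widest bars belong to RPS10, RPL17, RPL26, RPL36A and RPS15A, which have the fewest fragments.

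RPLP2 (chr11:809647-812880, plus strand), 1 of the acidic proteins of the ribosomal stalk, had the smallest p of the members. It was measured at 408.7, 400.0 and 414.1 FPKM in control and 470.7, 484.1 and 445.6 FPKM in I13 libraries. All 3 I13 libraries were above all 3 control libraries. The log2 fold change was 0.19 ± 0.0495 (SE), with an unadjusted p of 0.00545 and an adjusted p of 0.787 by limma. It stayed at an unadjusted p under 0.05 when any library was left out, with log2 fold changes of 0.17 to 0.23. It was 0.18 in the 4 libraries outside control replicate 3 and I13 replicate 2 (unadjusted p = 0.0229, limma) and 0.23 within that pair. Only 0.170% of its 50-base words are shared with other genes. In the voom fit with a term for the pair its adjusted p was 0.00687. Over all alternatives it ranged from 0.00687 to 1.00, with 1 of 19 alternatives under 0.05.

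RPS12 (chr6:132814441-132817564, plus strand), a 40S protein, stood at 1138, 1080 and 1133 FPKM in control and 1218, 1229 and 1255 FPKM in I13 libraries. RPL27 (chr17:42998273-43002959, plus strand), a 60S protein, stood at 420.1, 394.4 and 409.5 FPKM in control and 451.6, 477.0 and 431.6 FPKM in I13 libraries. Both genes had no overlap between the groups. Their log2 fold changes were 0.14 ± 0.0513 (unadjusted p = 0.0258, adjusted p = 0.940, limma) and 0.15 ± 0.0548 (unadjusted p = 0.0275, adjusted p = 0.947). RPL39 (chrX:119786504-119791643, minus strand), a very small protein at the exit tunnel, stood at 186.1, 173.1 and 169.3 FPKM in control and 192.2, 200.5 and 185.5 FPKM in I13 libraries. Control replicate 1 was just above I13 replicate 3 here, and the log2 fold change was 0.13 ± 0.0543 (unadjusted p = 0.0476, adjusted p = 0.947, limma). The unadjusted p of RPS12 stayed under 0.05 only without control replicate 3 among the 6 libraries left out in turn, and that of RPL27 and RPL39 without 2 of the 6. In the 4 libraries outside the pair the log2 fold changes were 0.16, 0.12 and 0.07 for RPS12, RPL27 and RPL39, none with an unadjusted p under 0.05, and within the pair they were 0.12, 0.22 and 0.24.

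RPL17 (chr18:49488453-49492523, minus strand) had the largest fold change among these. It stood at 0.942, 0.969 and 1.10 FPKM in control and 1.55, 1.14 and 2.04 FPKM in I13 libraries, a log2 fold change of 0.57 ± 0.217 (unadjusted p = 0.0327, adjusted p = 0.947, limma). The groups did not overlap, but I13 replicate 2 was only just above control replicate 3. The unadjusted p stayed under 0.05 only without I13 replicate 2, and the log2 fold change ranged from 0.38 without I13 replicate 3 to 0.77. It was 0.84 in the 4 libraries outside the pair (unadjusted p = 0.0181, limma) and 0.05 within the pair. Its low count and shared sequence are given above.

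The other large fold changes came from genes with few fragments. RPS10 had a log2 fold change of 0.59 ± 0.362 with a p of 0.147 by limma, and 0.94 without control replicate 2, where its unadjusted p fell under 0.05. RPL26, another protein of the exit tunnel with 44 to 73 fragments, stood at 1.13, 1.04 and 1.66 FPKM in control and 1.86, 1.24 and 1.54 FPKM in I13 libraries. Its log2 fold change was 0.27 ± 0.222, but 0.60 in the 4 libraries outside the pair (unadjusted p = 0.0305, limma) and -0.40 within the pair. RPL36A, at 0.19 ± 0.197, overlapped between the groups. At the other end, RPL22L1 had -0.08 ± 0.0706, RPS15A -0.07 ± 0.173, RPL36AL -0.03 ± 0.0549, RPL3 -0.02 ± 0.0604 and RPS27L -0.02 ± 0.114. None of these 5 had an unadjusted p under 0.05.

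By position on the ribosome, the small groups of the stalk and the exit tunnel had higher medians than all members (0.07). The 3 P stalk genes RPLP0, RPLP1 and RPLP2 were all above 0, their median was 0.10 on the log2 scale, and 1 of them, RPLP2, was higher at an unadjusted p under 0.05 (2.55% of all genes). RPLP1 stood at 546.5, 522.2 and 544.3 FPKM in control and 549.1, 613.8 and 573.1 FPKM in I13 libraries, without overlap (4.88% of all genes had I13 above). The 8 exit tunnel genes were all above 0 with a median of 0.12, and 2 of them, RPL17 and RPL39, were higher at an unadjusted p under 0.05. This share was 2.55% of all genes and 6.02% of all members. RPL17 and RPL26 in this group have few fragments. In the 4 libraries outside control replicate 3 and I13 replicate 2 the medians were 0.07 for the stalk, 0.08 for the exit tunnel and 0.04 for all members. The difference between these groups and the other members was not tested. RPL5 and RPL11, which form a particle with 5S ribosomal RNA that can bind MDM2 and stabilise p53, had 0.02 and 0.07.

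Genes mutated in Diamond-Blackfan anemia, a failure of red cell production, were represented by 9 members. All 9 were above 0, with a median of 0.05 and 0 at an unadjusted p under 0.05. RPS19, the gene most often affected, stood at 336.6, 311.8 and 343.3 FPKM in control and 354.2, 373.7 and 331.7 FPKM in I13 libraries. RPS14, the ribosomal gene of the interval lost in the 5q- form of myelodysplasia, had 0.11 ± 0.0561. RPS6, the substrate of S6 kinase downstream of mTOR, had 0.07 ± 0.0721, and RPS27A, made as a fusion with ubiquitin, had 0.03 ± 0.0453. Of the 83 members, 75 are above 0, so that all members of a small list being above 0 is close to what the whole group shows.

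Members were also grouped by their annotated starts. The 43 genes that start at C with a run of at least 5 pyrimidines had a median log2 fold change of 0.09, with 40 above 0. The 24 genes with other starts had 0.04, with 20 above 0. Across the 67 genes Spearman's rho between the run length and the log2 fold change was 0.30, and across 83 genes that between the mean FPKM and the log2 fold change was 0.04. Both are descriptions across genes of the same libraries. The order was not the same for single genes by annotated start. RPL27 had one of the larger differences without a tract there, and RPL22L1 had the lowest value with one. The printed window of RPL27 does end in a run of C and T further from the start.

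Many ribosomal protein genes carry a small nucleolar RNA in an intron. The 28 members with a snoRNA gene inside had a median log2 fold change of 0.08, and 4 (14.3%) were higher at an unadjusted p under 0.05. The 55 tested members without one had a median of 0.07, and 1 (1.82%) was higher, where 2.55% of all genes were. The medians of these classes hardly differ.

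In 7 pairs the table holds both a ribosomal protein gene and its like copy. In most of them the parent gene carried nearly all of the expression. RPL22, at 118.6 ± 7.20 FPKM in control, was far above RPL22L1 at 5.63 ± 0.227 FPKM, and RPS27, at 359.6 ± 19.8 FPKM, was far above RPS27L at 2.12 ± 0.0837 FPKM. RPL39L, a copy best known from the testis, was clearly measured at 15.4, 15.9 and 18.3 FPKM in control and 16.8, 18.7 and 14.8 FPKM in I13 libraries, or 240 to 330 fragments. It made up 7.40% to 9.77% of its pair. RPL7L1, a gene of ribosome assembly, was at 32.0 ± 1.09 FPKM in control and 32.0 ± 0.528 FPKM in I13 libraries. RPL3L, known from heart and skeletal muscle, had 0 to 3 fragments in any library and was listed at 0 in 3 libraries, against 951.7 ± 29.4 FPKM for RPL3 in control.

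The order was turned around in a pair of cases. RPL36AL made up 97.4% to 98.3% of its pair, and RPL26L1 made up 88.6% to 93.8%. RPL36AL was at 104.6, 106.2 and 97.8 FPKM in control and 106.8, 98.6 and 97.9 FPKM in I13 libraries. RPL36A was at 1.80, 2.66 and 1.65 FPKM in control and 2.25, 2.01 and 2.63 FPKM in I13 libraries. RPL36A and RPL26 are among the genes whose sequence is largely shared, as given above.

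The coding sequences of RPL36A and RPL36AL show how close such copies are. They are identical at 286 of 318 aligned bases (89.9%). Their first 60 coding bases are printed from the GENCODE 29 transcripts with the differing bases in capitals, because a short read here tells the copies apart only at those bases.
RPL36A: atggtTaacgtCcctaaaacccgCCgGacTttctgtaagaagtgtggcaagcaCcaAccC
RPL36AL: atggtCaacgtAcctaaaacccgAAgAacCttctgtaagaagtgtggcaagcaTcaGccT
In this stretch 9 bases differ, and over the coding sequences the copies share 11 words of 50 bases. RPL39 and RPL39L are identical at 94.8% of 153 bases, RPL26 and RPL26L1 at 84.1% of 435, and RPL7 and RPL7L1 at 55.7% of 740 aligned bases. No 50-base word is shared by these 3 pairs in their coding sequences.

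The balance within the pairs was compared between the groups library by library. The log2 ratio of the like copy to its parent changed by -0.05 for RPL7L1, -0.16 for RPL22L1, -0.13 for RPL26L1, -0.21 for RPL36AL, -0.11 for RPL39L and -0.11 for RPS27L, I13 minus control. Exact permutation tests, two-sided over 3 against 3 libraries, gave a p of 0.2 for RPL22L1 and 0.4 to 0.7 for the other pairs, with adjusted values of 0.6 to 0.7 over the 6 pairs. Such a test cannot give a p under 0.1. All 6 differences were below 0. The RPL26L1 to RPL26 ratio changed by -0.60 in the 4 libraries outside control replicate 3 and I13 replicate 2 and by 0.81 within it.

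**Figure D5:**
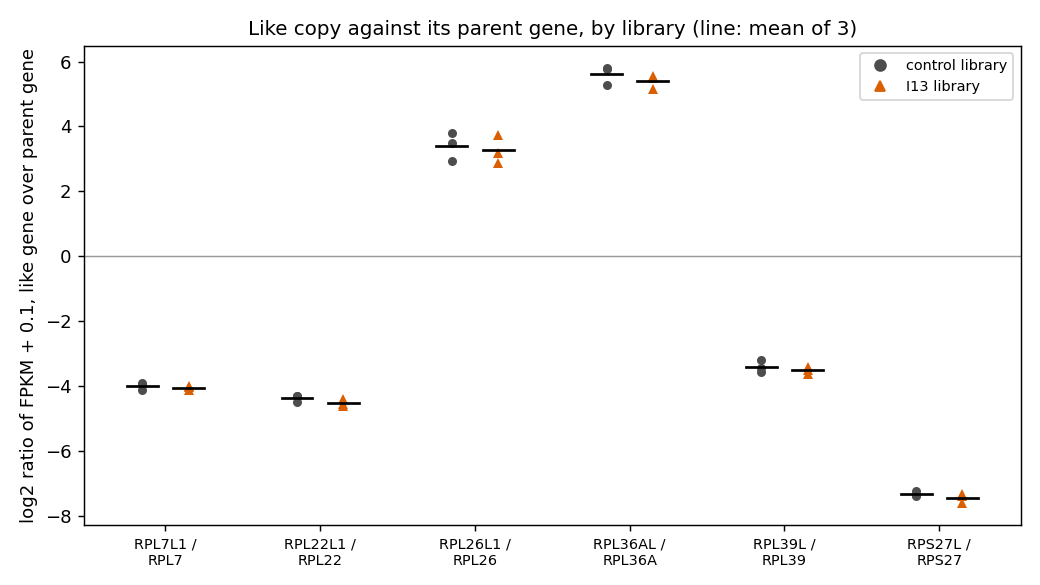
Log2 ratio of FPKM + 0.1 of the like copy over its parent gene, 1 point per library for 6 pairs, with the mean of 3 libraries as a line (circles control, triangles I13). RPL36AL and RPL26L1 lie above 0 and the other 4 copies below it, and the control and I13 points overlap in every pair.

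Pseudogenes of the family were measured alongside the genes. The table holds 471 of the 1149 ribosomal protein pseudogenes in GENCODE 29, of which 369 were above 0. Together they held 1.92% ± 0.0803 of the summed FPKM in control and 2.03% ± 0.0895 in I13 libraries. RPS28P7 (chr11:82689559-82689768, plus strand) alone made up 31.5% of this sum. It was at 1762, 1701 and 1802 FPKM in control and 1941, 1988 and 1776 FPKM in I13 libraries, above the mean of every member.

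Its parent gene RPS28, a 40S protein (chr19:8321158-8323340, plus strand), was at 95.2, 89.96 and 106.5 FPKM in control and 111.1, 110.4 and 101.7 FPKM in I13 libraries. The exon length of RPS28P7 is 210 bases and that of RPS28 is 2119 bases. In fragments, the pseudogene had 5699 to 6965 and RPS28 3271 to 3903 per library. RPL9P9 followed at 544.7 FPKM against 222.6 FPKM for RPL9, with lengths of 717 and 3259 bases. In fragments the order of this pair was reversed, with 5891 to 7241 for RPL9P9 and 10554 to 13027 for RPL9. With reads of near-identical copies the parent and the pseudogene cannot be told apart here. Members and pseudogenes together held 12.3% ± 0.392 in control and 12.8% ± 0.521 in I13 libraries, a difference of 0.552 percentage points.

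The other genes of the pathway were read from lists set up with the members. FAU, which encodes a 40S protein made as a fusion with a ubiquitin-like protein, falls outside the naming rule, as does RACK1, a scaffold on the 40S subunit. FAU was at 39.3 ± 3.41 FPKM in control and 41.9 ± 4.86 FPKM in I13 libraries, and RACK1 at 321.1 ± 13.6 and 337.2 ± 10.7 FPKM. Their log2 fold changes of 0.09 and 0.07 were close to the median of the members, and neither had an unadjusted p under 0.05.

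Other mRNAs with a TOP tract, mostly translation factors, were represented by 15 tested genes. Their median log2 fold change was -0.0028, 6 were above 0, and 0 had an unadjusted p under 0.05 in either direction. Of the 11 with a promoter window, 8 (72.7%) started at C with a run of at least 5 pyrimidines, a share like that of the members. The difference between these genes and the members was not tested.

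Genes of ribosome assembly and of its control gave few small p-values. Of 22 nucleolar assembly genes, 11 genes of RNA polymerase I, 13 chaperones and carriers of ribosomal proteins, 13 genes of TOP control such as LARP1 and MTOR, and 4 genes of the p53 checkpoint, 0 had an unadjusted p under 0.05 in either direction. By voom 1 of them, MDM4, an inhibitor of p53, was lower (unadjusted p = 0.0390). Their median log2 fold changes were 0.03, 0.0047, 0.04, 0.02 and 0.02. Of 78 mitochondrial ribosomal protein genes, 4 were higher at an unadjusted p under 0.05 (5.13%, 2.55% of all genes) and 0 were lower, with a median of 0.03. MRPL53 stood at 1.43, 2.04 and 1.62 FPKM in control and 2.43, 3.26 and 2.39 FPKM in I13 libraries, and MRPS28 at 0.288, 0.513 and 0.365 FPKM in control and 0.691, 0.858 and 0.720 FPKM in I13 libraries. MRPL40 and MRPL52 were the other 2, with log2 fold changes of 0.23 ± 0.0809 and 0.15 ± 0.0560. The lowest adjusted p of the 4 by limma was 0.859, for MRPL53.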

How the data were processed

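Total RNA of 3 control and 3 I13 samples of Kasumi-1 cells was made into TruSeq stranded mRNA libraries. The authors deposited FPKM values (fragments per exon length and mapped depth) per Ensembl gene, and the submitters' processing notes name Trimmomatic, HISAT2, Cufflinks, HTSeq and hg38. The sources used here give neither the annotation release nor the strand setting. Fragments were recovered with GENCODE 29 exon lengths, with 25773 of 27002 genes (95.4%) whole in all 6 libraries within 0.01. For 18 members the smallest length that gave whole numbers was used.

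log2(FPKM + 0.1) was compared with limma 3.58.1 in R 4.3.3 over genes with a mean of at least 0.1 FPKM, with a variance trend, no block, two-sided and with Benjamini-Hochberg adjustment. The test, on FPKM simulated for I13 against control, recovered 159 of 200 genes changed by 2-fold and called 31 unchanged ones among 18173 genes. Unchanged genes were thus a larger share of the calls in this simulation than the 0.05 that the adjusted p names. The simulated counts had 1 fixed dispersion for all genes and no difference between libraries other than depth and the change itself. Changed genes were drawn only from those with more fragments. The recovery therefore does not measure the power of the real comparison, whose replicates differ in other ways. For voom a gene needed 10 fragments on average. Members and lists were chosen with earlier results of these data known. Genes named with values were the 5 highest members, those with an unadjusted p under 0.05, the 5 largest and smallest fold changes, paralog pairs, members under 1 FPKM and role groups. RPS29, RPS28, RPL9 and the pseudogenes were named after their values were seen. Words of 50 bases were compared between GENCODE 29 transcripts. Alternatives were other pseudocounts, filters, scalings, variance settings, voom and each library left out. Chromosome positions are on GRCh38. Values of some single genes that the naming rule covers are not reported here.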

Additional observations from a re-analysis of the deposited data

How the results depend on the processing

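No member was called at the adjusted p and fold in any setting tried. The 5 members higher at an unadjusted p under 0.05 became 2 with no filter, with median scaling or with limma without a trend, 9 by voom, 32 when voom had a term for control replicate 3 and I13 replicate 2, and 1 to 10 when each library was left out. With a replicate block it was 3. Replicate numbers did not pair the samples, with correlations of 0.32, -0.38 and -0.30 for numbers 1, 2 and 3, so the block shares only a number. Shares of all genes at this p are given above for the main fit and for voom with and without the pair term. For the other settings they are not given here. The genes of the pathway lists numbered 4 higher and 0 lower. The lower ones became 1 with no filter, a minimum of 1 FPKM, median scaling, rescaling to the sum of other genes, the replicate block or voom, and 2 with quantile normalization. Without control replicate 3 and I13 replicate 2 they were 10 higher and 6 lower. With each library left out they were 2 to 8 higher and 0 to 5 lower. The median log2 fold change of members was 0.04 to 0.10, their spread 0.07 to 0.13 and the difference in share 0.252 to 0.675 percentage points with each library left out. The spread was 0.0644 with a pseudocount of 1. The ratio of RPL3L to RPL3, at -0.12, was -0.64 with a pseudocount of 0.01 and rests on 0 to 3 fragments. The ratio of RPL26L1 to RPL26, at -0.13, was -0.60 without control replicate 3 and I13 replicate 2 and 0.81 in that pair. With each library left out it was -0.37 to 0.06, that of RPL3L -0.35 to 0.09, of RPL7L1 -0.11 to -0.0040, of RPL22L1 -0.22 to -0.12, of RPL36AL -0.39 to -0.09, of RPL39L -0.20 to -0.01 and of RPS27L -0.17 to -0.03. The cause of these shifts was not tested. RPL3L, RPS10, RPL17 and RPL26, with under 100 fragments in every library, have the least precise values, and intervals of depth cover counting error only.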
